A study of Mus musculus with 3 samples.

Results

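The genes described here are 9 matricellular genes of the mouse, Tnc, Tnxb, Thbs1, Thbs2, Thbs4, Postn, Sparc, Spp1 and Cyr61, followed through the cells of dorsal skin. They were chosen by symbol and make up 9 of the 27998 genes in the count matrices. All 9 were found. Levels are given as CPM, the UMIs of a gene scaled to the summed UMIs of a class in a library, and all 9 reached 10 CPM in fibroblast-like cells of at least 1 library. The material was dissociated dorsal skin of C57BL/6 mice at 3 ages, with 1 droplet 3′ single-cell RNA library each for neonatal, 3 week and 2 month skin. No transgene, treatment or sort is given for any library, and the number of animals in a library is not given in the sources used here. The series as a whole concerns IL1 and WNT pathways in the dermal adipocyte lineage. With 1 library per age, a difference between ages has no replicate error, so ages are compared by levels with counting intervals and without p-values.

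Matricellular proteins are secreted into the extracellular matrix but act mainly on cells and on matrix assembly rather than as structural fibres. Tenascins and thrombospondins are large multimeric glycoproteins that bind integrins, syndecans and growth factors. Periostin and SPARC bind collagen and take part in its processing, osteopontin (Spp1) is a secreted integrin and CD44 ligand, and CCN1 (Cyr61) is an integrin-binding protein whose gene is a target of the YAP and TEAD transcriptional regulators. In skin, several of these genes are known for high activity during growth and wound repair.

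The libraries held 84086755, 113874172 and 98432611 UMIs in the neonatal, 3 week and 2 month sample. After filters and doublet removal 7436, 8689 and 8984 cells were kept. The median cell had 8506.5, 11006 and 8280 UMIs. Libraries shared between 23 and 31 cell barcodes after the filters. Cells were assigned to classes by marker genes that included none of the 9 members. This gave 5826, 5543 and 4733 fibroblast-like cells, whose leading genes were Col1a1, Col1a2, Lum and Dcn. Keratinocyte-like cells numbered 268, 1409 and 1767, and 703, 449 and 578 cells received no class. The gate cuts a continuous score, and 325, 50 and 51 of the fibroblast-like cells lay within 0.05 score units of the cut. Endothelial-like cells (35, 95 and 43) were led by the lymphatic genes Ccl21a, Mmrn1 and Lyve1. Genes of mitochondria, ribosomal proteins and haemoglobin took 27.1% of fibroblast-like UMIs in the neonatal library against 14.1% and 13% in the later ones.

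The members lie on 7 chromosomes (GRCm38 build, GENCODE M21 models matched by Ensembl ID). Tnxb spans chr17:34670535-34719815 and overlaps the pseudogene Cyp21a2-ps on the opposite strand. Thbs2 also lies on chromosome 17 (chr17:14665500-14694235), and Cyr61 (chr3:145646976-145649981) shares chromosome 3 with Postn (chr3:54361109-54391037). Tnc spans chr4:63959785-64047015, Thbs1 chr2:118111876-118127133, Thbs4 chr13:92751590-92794818, Sparc chr11:55394500-55423183 and Spp1 chr5:104435118-104441050. Tnc overlaps 8030451A03Rik and Thbs1 overlaps Gm29233 on the opposite strand, and Spp1 overlaps Gm42793 on the same strand. How the counting treated strand and overlaps is not given in the sources used here, so part of the counts of Tnxb, Tnc, Thbs1 and Spp1 could belong to those genes.

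Promoter windows are shown for Postn and Thbs4, which were both at least 2-fold lower at 2 months than at 3 weeks, and for Cyr61, the YAP target, whose level varied least with age. Each window runs from 250 bases before to 50 bases after the RefSeq transcription start (GRCm38.p6) and is written 5′ to 3′ on the strand of the gene. Capitals mark matches, on either strand, to the TEAD core CATTCC and the TATA box TATAAA. The AP-1 core TGACTCA was searched too and has no match in these 3 windows.
Postn, plus strand, chr3:54360857-54361156: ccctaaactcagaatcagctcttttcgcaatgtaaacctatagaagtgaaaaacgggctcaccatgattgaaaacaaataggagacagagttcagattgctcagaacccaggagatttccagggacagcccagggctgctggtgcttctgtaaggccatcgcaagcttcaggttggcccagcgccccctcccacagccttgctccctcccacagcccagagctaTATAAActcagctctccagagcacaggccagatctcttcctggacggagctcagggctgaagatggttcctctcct
Thbs4, minus strand, chr13:92794769-92795068: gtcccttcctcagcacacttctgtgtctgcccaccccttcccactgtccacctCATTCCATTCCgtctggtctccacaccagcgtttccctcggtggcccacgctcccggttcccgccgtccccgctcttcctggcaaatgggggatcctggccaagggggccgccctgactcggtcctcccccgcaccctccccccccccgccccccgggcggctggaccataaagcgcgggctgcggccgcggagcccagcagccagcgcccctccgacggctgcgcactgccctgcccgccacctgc
Cyr61, minus strand, chr3:145649936-145650235: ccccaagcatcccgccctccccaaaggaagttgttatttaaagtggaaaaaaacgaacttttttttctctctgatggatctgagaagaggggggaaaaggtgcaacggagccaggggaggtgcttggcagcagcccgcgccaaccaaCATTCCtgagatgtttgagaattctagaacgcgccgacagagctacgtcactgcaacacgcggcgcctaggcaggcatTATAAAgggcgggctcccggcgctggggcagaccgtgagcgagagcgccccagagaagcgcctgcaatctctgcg
The Postn window has a TATA box that begins 26 bases before the start. The Cyr61 window has a TATA box 25 bases and a TEAD core 103 bases before the start. In the Thbs4 window, of 72% G and C, 2 TEAD cores begin 197 and 192 bases before the start and share 1 base. Among 32851 mouse promoter windows of this length, 14.7% hold the TEAD core, 13.6% the TATA box and 5.2% the AP-1 core. These matches describe the sequence and were not tested for binding.

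In fibroblast-like cells the matricellular genes took 1.42% of all UMIs in the neonatal library, 5.48% at 3 weeks and 6.39% at 2 months. The increase was carried by Sparc, which made up 68.8% of the members' UMIs in the neonatal library and 93.4% and 95.3% later. The other members differed in direction. From neonatal to 3 weeks, 4 members were at least 2-fold higher (Tnxb, Thbs4, Sparc and Spp1) and 3 at least 2-fold lower (Tnc, Thbs1 and Thbs2), where 9.46% and 10.3% of 8776 genes at 10 CPM or more were higher and lower by that size. From 3 weeks to 2 months none was 2-fold higher and 3 were 2-fold lower (Thbs1, Thbs4 and Postn), against 2.97% and 4.44% of all genes. From neonatal to 2 months 3 were higher (Tnxb, Sparc and Spp1) and 5 lower (Tnc, Thbs1, Thbs2, Thbs4 and Postn), against 11.1% and 17.3%. Intervals of single levels cover counting error only.

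**Figure D1:**
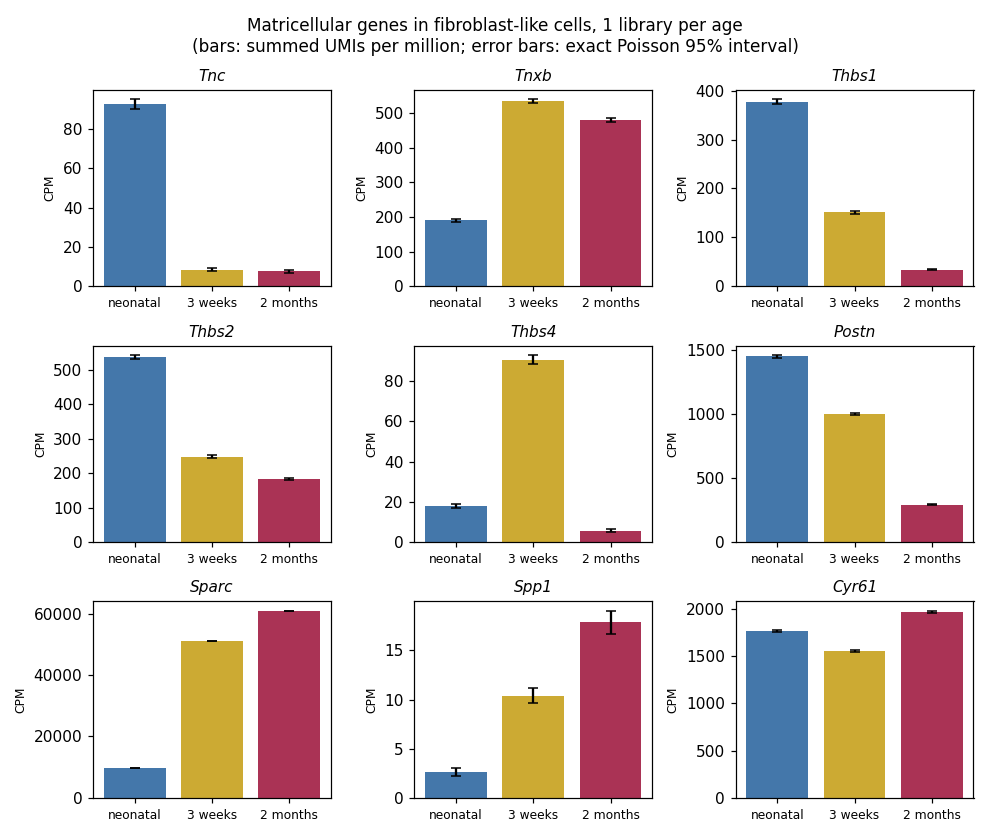
Level of each matricellular gene in fibroblast-like cells (vertical axis, CPM of summed UMIs, with exact Poisson 95% intervals) in the 3 libraries (horizontal axis, 1 library per age). Sparc and Tnxb are low in the neonatal bar, Tnc, Thbs1, Thbs2 and Postn are highest there, Thbs4 peaks at 3 weeks with 90.8 CPM, and Cyr61 lies between 1559 and 1969 CPM in every library.

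The tenascins had opposite age courses. Tnc, an anti-adhesive tenascin of growing and injured tissue, stood at 92.5, 8.34 and 7.59 CPM in fibroblast-like cells of the neonatal, 3 week and 2 month library. Only the neonatal library was high, with a log2 ratio of -3.47 (95% counting interval -3.6 to -3.35) at 3 weeks. Tnxb, a tenascin of collagen-rich dermis whose loss in humans causes a form of Ehlers-Danlos syndrome, stood at 190.2, 534.2 and 480.9 CPM. Here the neonatal library was the low one, and the log2 ratio at 3 weeks was 1.49 (1.46 to 1.52). After thinning every cell to 1500 UMIs, 9.2%, 0.778% and 0.993% of fibroblast-like cells had a Tnc UMI. The unthinned shares were 29.5%, 2.83% and 2.58%. T or innate lymphoid-like cells, which should lack Tnc, had none in 37, 256 and 642 thinned cells, which allows up to 8.11%, 1.17% and 0.467%. For Tnxb the thinned shares in fibroblast-like cells were 16.5%, 46.3% and 41.9%. Their unthinned shares were 42.9%, 84.9% and 74.8%, and the thinned shares in T or innate lymphoid-like cells were 0%, 1.17% and 0.779%. The median fibroblast-like cell held 8856.5, 12181 and 9970 UMIs, and the median T or innate lymphoid-like cell 8910, 2715 and 2412 UMIs.

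The 3 thrombospondins had 3 different courses. Thbs1, an activator of latent TGF-beta and an inhibitor of angiogenesis, was lower at each later age, with 377.3, 151.4 and 33.9 CPM in fibroblast-like cells. Its log2 ratio was -1.32 at 3 weeks against neonatal and -2.16 (-2.23 to -2.09) at 2 months against 3 weeks. Thbs2, a thrombospondin that shapes collagen fibrils, stood at 536.9, 247.7 and 183.4 CPM, with the larger step between neonatal and 3 weeks. Thbs4, a pentameric thrombospondin abundant in tendon, was highest in the 3 week library, with 17.9, 90.8 and 5.61 CPM. It rested on few cells: after thinning 1.22%, 4.29% and 1.01% of fibroblast-like cells had a Thbs4 UMI, and none of the 37, 256 and 642 thinned T or innate lymphoid-like cells had one. Unthinned, 3.43%, 10.8% and 2.92% of fibroblast-like cells had a Thbs4 UMI. As a mean of CPM per cell in place of the summed count, the log2 ratio of Thbs4 at 2 months against neonatal was -0.05 and not -1.67. The same change took the Thbs1 ratio at 3 weeks from -1.32 to -0.98.

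Periostin was lowest at 2 months. Postn, a fasciclin-domain protein that binds collagen and promotes its cross-linking, stood at 1454, 1000 and 292 CPM in fibroblast-like cells. The neonatal and 3 week libraries differed by a log2 ratio of -0.54, and the log2 ratio at 2 months against 3 weeks was -1.78 (-1.8 to -1.75). The share of fibroblast-like cells with a Postn UMI after thinning was 46.4%, 36% and 24.8%, and unthinned 67%, 52.1% and 41.6%. In T or innate lymphoid-like cells the thinned share was 2.7%, 2.34% and 0.312%. SPARC, a collagen-binding glycoprotein, had its larger step earlier. Sparc stood at 9767, 51241 and 60926 CPM, a log2 ratio of 2.39 at 3 weeks against neonatal and of 0.25 at 2 months against 3 weeks. Almost every fibroblast-like cell had a Sparc UMI after thinning, with 95.6%, 99.7% and 99.4%. Its share in T or innate lymphoid-like cells was 2.7%, 52.3% and 41%, so presence of a Sparc UMI did not mark a cell type at the later ages. As a mean of CPM per cell, the last Sparc ratio became -0.05.

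Osteopontin was the rarest member in neonatal fibroblast-like cells, while Tnc at 3 weeks and Tnc and Thbs4 at 2 months were lower still than Spp1. Spp1 stood at 2.61, 10.4 and 17.8 CPM, from 145, 723 and 929 UMIs. At 2 months 556 of the 929 UMIs (59.8%) lay in 125 cells of the Vwa1 and Apod gate. That gate also scored Sox9, Slc2a1 and Cldn1. Without the cells of that gate the levels of Spp1 were 2.58, 8.94 and 7.25 CPM, and the log2 ratio at 2 months against 3 weeks moved from 0.78 to -0.3. The ratio at 2 months against neonatal moved from 2.77 to 1.49, and as a mean of CPM per cell it was 4.42. Cyr61 stood at 1768, 1559 and 1969 CPM in the 3 libraries, with 67.1%, 68.3% and 72.2% of thinned fibroblast-like cells positive. Unthinned, 89.5%, 92.9% and 90.8% were positive, against thinned shares of 2.7%, 3.52% and 3.58% in T or innate lymphoid-like cells. No pair of libraries differed 2-fold in Cyr61, and the sign of its ratio at 3 weeks against neonatal (-0.18) turned under TMM scaling (0.0011).

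Across classes, the members were mostly genes of fibroblast-like cells. Each class was compared with fibroblast-like cells by the edgeR quasi-likelihood test on counts summed per class and library, with library as a term and Benjamini-Hochberg adjustment over 11427 genes. In keratinocyte-like cells 9 of 9 members were lower and 0 higher, against 25.7% and 19.6% of all genes tested. The weakest of these, Thbs1 (adjusted p = 0.04997), was not called without the neonatal or the 3 week library (adjusted p = 0.053 and 0.474). In T or innate lymphoid-like cells 8 were lower (26.4% of all genes) and 0 higher (20.1%), with Spp1 not called. In macrophage-like cells 7 were lower (21.3%) and 0 higher (16.7%), with Thbs1 and Spp1 not called. In endothelial-like cells 6 were lower (16.8%) and 0 higher (12.2%), with Tnc, Thbs1 and Spp1 not called. Mural cells are the pericytes and smooth muscle cells of vessels. In mural-like cells 6 were lower (15.2%) and 0 higher (10.8%), and again Tnc, Thbs1 and Spp1 were not called. In skeletal muscle-like cells 6 were lower (15.5%) and 0 higher (8.47%), with Tnc, Thbs4 and Spp1 not called. In Schwann-like cells, the glia of peripheral nerve, 5 were lower (18.4%) and 1, Spp1, higher (12%). In erythroid-like cells Sparc and Cyr61 were lower (2.26%) and 0 members higher (5.41%). These p-values rest on 3 libraries that differ in age, so any change of a class difference with age counts as spread. Without the 3 week library the mural-like and Schwann-like counts of lower members were 3 and 2. The share of all genes called was not counted in that fit. The collagen genes Col1a1, Col1a2 and Col3a1 are markers of the fibroblast gate.

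**Figure D2:**
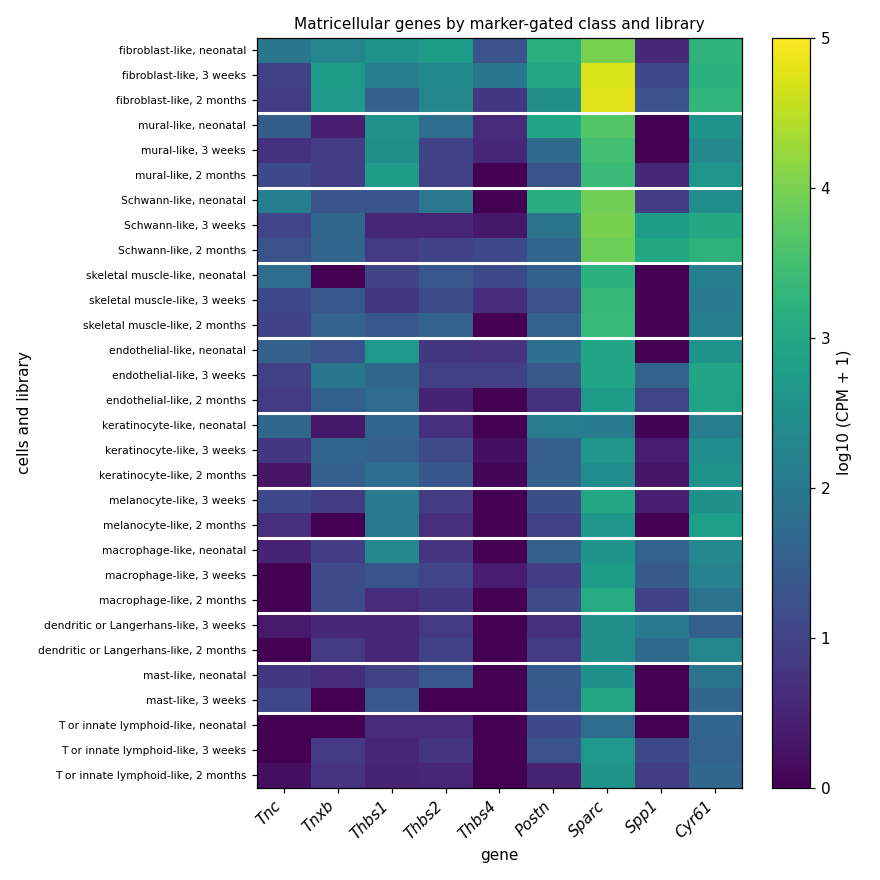
Level of the 9 genes (columns) as log10 of CPM + 1 in summed profiles of the main marker-gated classes with 20 or more cells in a library (rows, 1 row per class and library). Sparc is brightest in the fibroblast-like rows, Spp1 in the Schwann-like rows at 3 weeks and 2 months, and Thbs1 stays bright in the mural-like rows while it fades in the fibroblast-like ones.

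Spp1 was the only member called higher in another class than fibroblast-like cells. In Schwann-like cells it stood at 7.38, 570.8 and 1090 CPM in the neonatal, 3 week and 2 month library, from 7, 513 and 1468 UMIs. The later libraries were high, and the neonatal one rested on few UMIs. The log2 fold change against fibroblast-like cells was 4.91 with a standard error of 1.03 and an adjusted p of 0.00107 (edgeR). Without the 3 week library the adjusted p was 0.0727, and without the neonatal or the 2 month library it was 2.042e-06 and 0.0443. After thinning 3.19%, 19.4% and 37.1% of Schwann-like cells had a Spp1 UMI (unthinned 5.32%, 25.6% and 45.9%), against 0%, 1.17% and 0.467% of T or innate lymphoid-like cells. Schwann-like cells numbered 94, 227 and 407 and held 34.6% and 56.5% of all Spp1 UMIs in kept cells at 3 weeks and 2 months. Their leading genes included the myelin genes Mbp and Mal. At 3 weeks 1 Schwann-like cell held 13.3% of their Spp1 UMIs. Dendritic or Langerhans-like cells had 117.8 and 53.7 Spp1 CPM at 3 weeks and 2 months. Macrophage-like cells, the source of osteopontin best known from inflamed tissue, had 36.6, 24.5 and 9.01 CPM, from 36, 17 and 5 UMIs. At 3 weeks 1 macrophage-like cell held 16 of the 17 Spp1 UMIs.

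Thbs1 UMIs came from different classes at different ages. Fibroblast-like cells held 89.8% of all Thbs1 UMIs in kept cells of the neonatal library, 86.3% at 3 weeks and 37.5% at 2 months. These shares also depend on how many cells of each class a library holds. In mural-like cells Thbs1 stood at 332.2, 310 and 568.5 CPM while fibroblast-like cells went from 377.3 to 33.9 CPM. The Thbs1 contrast of mural-like with fibroblast-like cells over the 3 libraries was not called (log2 fold change 1.38, adjusted p = 0.165). Without the neonatal library it was 1.87 with an adjusted p of 0.0109, and without the 3 week or the 2 month library it was not called (adjusted p = 0.377 and 0.746). Basal keratinocyte-like cells had 84.4, 51.4 and 119.7 Thbs1 CPM and suprabasal ones 11.2, 1.72 and 6.11 CPM. Endothelial-like cells had 470.3 CPM in the neonatal library and 45.3 and 55.5 CPM later. At 2 months 42.1% of thinned mural-like cells had a Thbs1 UMI, against 6% of fibroblast-like and 0.467% of T or innate lymphoid-like cells. Unthinned, the 3 shares were 63.1%, 14.6% and 0.554%, at median depths of 4662, 9970 and 2412 UMIs.

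**Figure D3:**
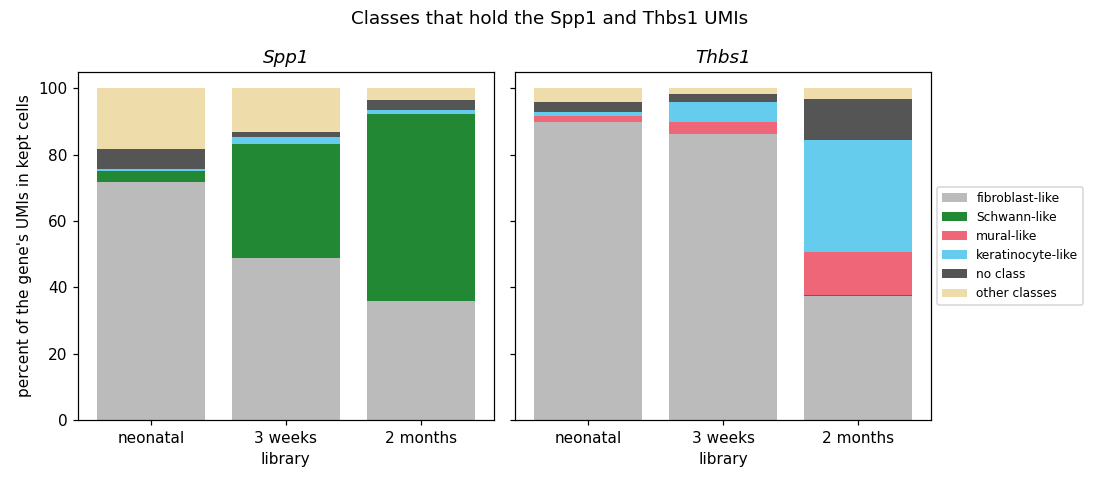
Share of all Spp1 UMIs (left) and Thbs1 UMIs (right) of kept cells (vertical axis, percent) held by each class in the 3 libraries (horizontal axis). The Schwann-like share of Spp1 reaches 56.5% at 2 months, and the fibroblast-like share of Thbs1 drops to 37.5% as keratinocyte-like (34%) and mural-like (12.9%) cells take larger shares.

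Sparc UMIs were found in every class. To set a scale, the level that fibroblast RNA alone would give a class was taken from its summed Col1a1, Col1a2 and Col3a1 UMIs and the ratio of Sparc to these collagens in fibroblast-like cells of the same library. T or innate lymphoid-like cells had 56.4, 470.1 and 382.4 Sparc CPM, which was 1.15, 0.81 and 0.962 times that level. Dendritic or Langerhans-like cells at 3 weeks and 2 months stood at 0.994 and 1.05 times, and macrophage-like cells at 1.27, 0.814 and 1.11 times. Basal keratinocyte-like cells stood at 4.57, 1.59 and 1.43 times. Suprabasal keratinocyte-like cells stood at 1.02, 1.005 and 1.11 times. In T or innate lymphoid-like, dendritic or Langerhans-like, macrophage-like and suprabasal cells Sparc was thus near the level that their collagen counts carry. Schwann-like cells had 8199, 9434 and 7976 Sparc CPM, 5.75, 7.38 and 8.88 times the level. Mural-like cells had 4494, 3110 and 2422 CPM, 9.3, 5.05 and 6.99 times the level. Skeletal muscle-like cells stood at 5.38, 3.38 and 4.77 times and endothelial-like cells at 6.98, 2.6 and 2.53 times. All 4 classes still had less Sparc than fibroblast-like cells, with log2 fold changes of -2.51 (Schwann-like, adjusted p = 0.00251), -3.55 (mural-like, adjusted p = 0.000196), -4.58 (skeletal muscle-like, adjusted p = 3.029e-05) and -5.97 (endothelial-like, adjusted p = 9.577e-07, all edgeR). The Schwann-like Sparc call was lost without the 3 week or the 2 month library (adjusted p = 0.102 and 0.113). Erythroid-like cells carried 34.1%, 18.2% and 15% of the fibroblast-like collagen level and had 1.04, 0.973 and 0.733 times the Sparc that this implies.

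**Figure D4:**
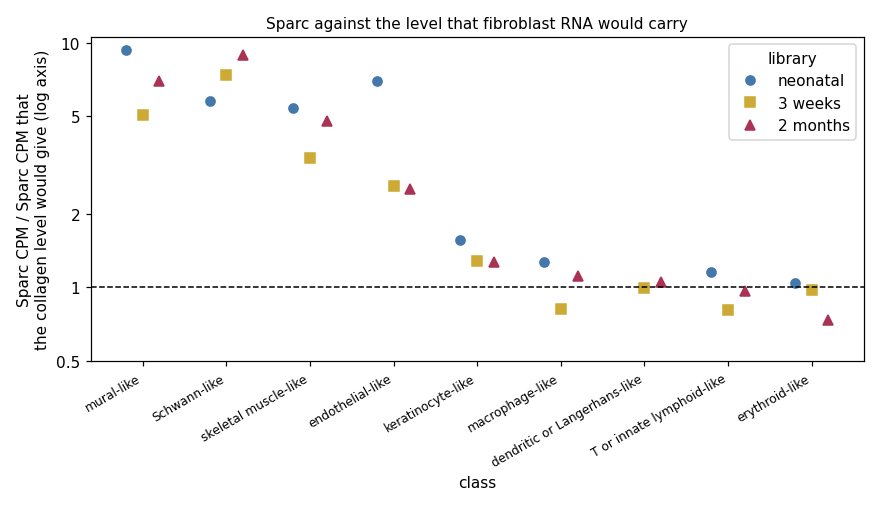
Sparc level of each class divided by the level that its collagen UMIs would imply if all came from fibroblast-like cells (vertical axis, log scale, dashed line at 1), by class (horizontal axis) and library (symbols). Mural-like, Schwann-like and skeletal muscle-like cells lie between 3.38 and 9.3, and T or innate lymphoid-like, dendritic or Langerhans-like and macrophage-like cells between 0.81 and 1.27.

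Tnc, Postn and Cyr61 UMIs were also found outside the fibroblast gate. Basal keratinocyte-like cells of the neonatal library had 179 Tnc CPM, above the 92.5 CPM of fibroblast-like cells, and 5.98 and 1.4 CPM at the later ages. Schwann-like cells had 140.2, 10.01 and 16.3 Tnc CPM, and their Tnc contrast with fibroblast-like cells was not called (log2 fold change 0.36, adjusted p = 0.629). At 2 months 244 of 704 Tnc UMIs (34.7%) lay in cells given no class, 183 of them in 22 cells with 5 or more Tnc UMIs. These 22 cells, picked by their Tnc count, had 1612 Dkk2 and 1127 Crabp1 CPM, against 353.6 and 267.8 CPM in the other cells given no class. Dkk2 and Crabp1 are markers of fibroblast subtype gates. The other leading genes of these cells were Serpine2, Pappa2, Stc2, Rasd1, Plvap, Slc26a7, Igfbp3, Nrn1, Cntfr and Prlr. Their cell type was not tested, so these Tnc UMIs are not shown to come from fibroblasts or from another cell type. Postn stood at 1324, 83.5 and 41.6 CPM in Schwann-like cells and at 919.4, 51.9 and 18.7 CPM in mural-like cells. The neonatal library was thus the high one for Postn in these classes as in fibroblast-like cells. Cyr61 in Schwann-like cells went from 280.5 to 1056 and 1693 CPM, and in basal keratinocyte-like cells from 201.1 to 369 and 573.3 CPM. The Cyr61 level in endothelial-like cells was 348.4, 844.1 and 743.7 CPM.

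Within fibroblast-like cells, subtypes were gated on further markers and compared with the 3296, 2800 and 2010 cells given no subtype, by the same edgeR test over 13113 genes. In dermal papilla-like cells, the signalling cells at the base of the follicle, 7 of 9 members were lower and 0 higher, against 15.7% and 12.7% of all genes. In follicle-associated cells, gated on Coch, Tnmd and Crabp1, 3 were lower (Tnxb, Sparc and Cyr61, with 9.29% of all genes) and 0 higher (6.41%). In dermal sheath-like cells, the contractile cells around the follicle, Cyr61 alone was lower (2.19%) and 0 were higher (2.4%). Interstitial progenitor-like cells, gated on Dpp4 and Pi16, had 1 member higher, Postn (6.06%), and 2 lower, Tnc and Spp1 (5.06%). Reticular-like cells of the lower dermis had Thbs4 higher (5.14%) and Cyr61 lower (4.57%). Papillary-like cells, named for the upper dermis, numbered 906, 335 and 227, of which 357, 161 and 124 lay within 0.05 score units of the cut. In them 0 members were higher and 0 lower, where only 0.0229% and 0.206% of all genes were called. None was called in either direction in cycling cells (7.15% of genes higher, 4.04% lower) or in cells gated on Cilp and Dkk2 (0.153% and 0.252%). Before adjustment the edgeR p was under 0.05 for Postn (papillary-like), Thbs4 (Cilp and Dkk2 gate) and Tnxb, Thbs4, Sparc and Cyr61 (cycling), all lower. Their adjusted p ran from 0.0818 (Cyr61, cycling) to 0.698 (Postn, papillary-like), so none of them is a call. DESeq2 called 1 member lower in cycling cells. The share of all genes was counted neither at the unadjusted p nor for DESeq2. Dermal papilla-like, dermal sheath-like and cycling cells entered from the neonatal and 3 week libraries and Cilp and Dkk2-gated cells from the 3 week and 2 month libraries.

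**Figure D5:**
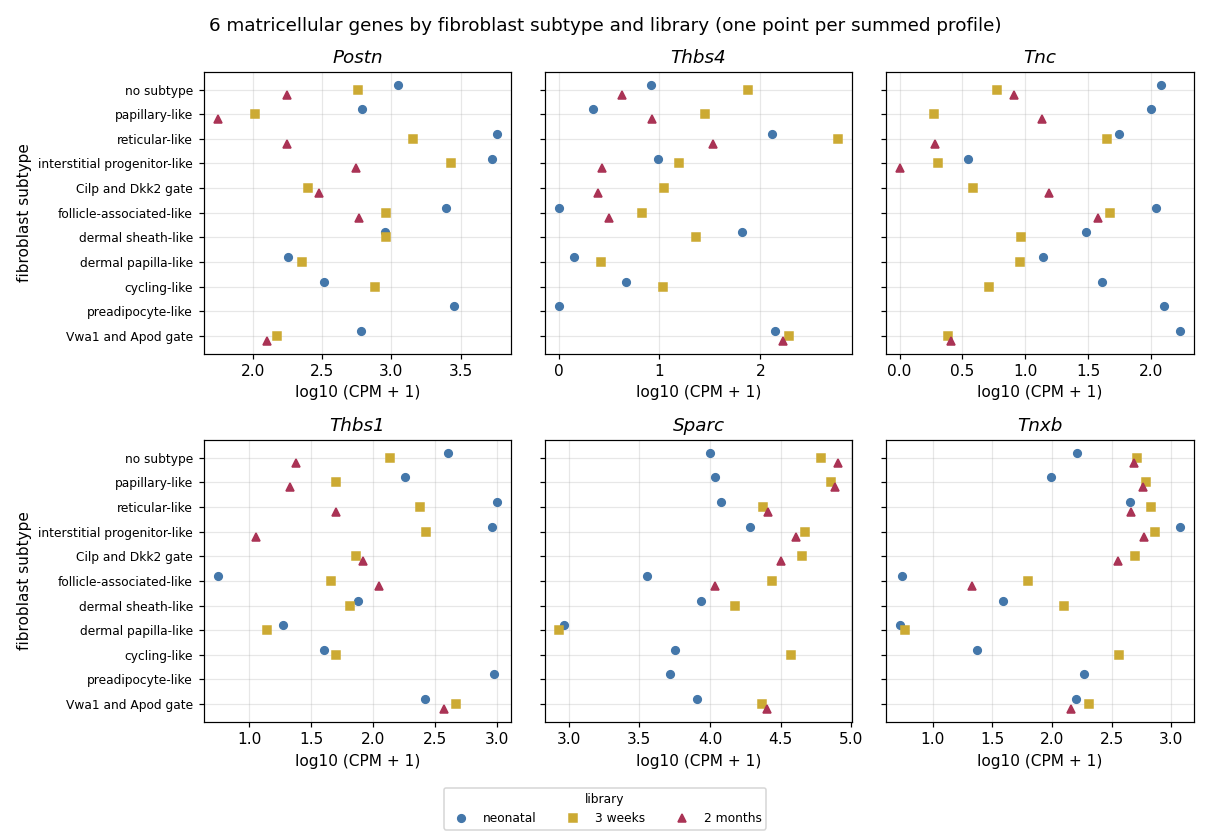
Levels of 6 matricellular genes as log10 of CPM + 1 (horizontal axes) in the fibroblast subtypes (vertical axis), with 1 symbol per library where a subtype had 20 or more cells. Thbs4 is highest in reticular-like cells at 3 weeks (593.9 CPM), Postn in reticular-like (5835 CPM) and interstitial progenitor-like cells (5342 CPM) of the neonatal library, and Sparc and Tnxb are low in dermal papilla-like cells at both ages shown.

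Sparc, Tnxb and Thbs2 were lower in dermal papilla-like cells than in every other subtype in both libraries, though the neonatal Tnxb value of follicle-associated cells (4.56 CPM, 1 UMI) does not differ from it beyond counting error. Sparc stood at 927.9 and 845.7 CPM in them in the neonatal and 3 week library, against 9904 and 60803 CPM in cells given no subtype. The log2 fold change was -5.53 with a standard error of 0.8 (adjusted p = 8.871e-05, edgeR). Tnxb stood at 4.29 and 4.85 CPM against 160.3 and 518.9 CPM (log2 fold change -6.68, adjusted p = 0.000209). Thbs2 stood at 6.01 and 8.09 CPM against 657 and 255.9 CPM (log2 fold change -6.55, adjusted p = 0.00111). Only 24 dermal papilla-like cells came from the 3 week library, and without that library the Tnxb and Thbs2 calls were lost (adjusted p = 0.0591 and 0.0748) while Sparc stayed past the threshold (0.0461). In follicle-associated cells Tnc stood at 109.4, 46.4 and 37.1 CPM, against 118.9, 4.97 and 7.14 CPM in cells given no subtype. That contrast was not called (log2 fold change 1.47, adjusted p = 0.26). Their Tnxb level of 4.56, 62.5 and 20.5 CPM lay below that of cells given no subtype (160.3, 518.9 and 489.7 CPM) in every library, with a log2 fold change of -4.09 and an adjusted p of 0.00116. Without the 2 month library the Tnxb adjusted p was 0.0774. DESeq2 did not call Sparc lower in follicle-associated cells (adjusted p = 0.172).

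Postn and Thbs4 were the members called higher in a named subtype. Postn in interstitial progenitor-like cells stood at 5342, 2700 and 556.8 CPM against 1116, 574.4 and 176.3 CPM in cells given no subtype, higher in 3 of 3 libraries. Its log2 fold change was 2.08 with a standard error of 0.64 (adjusted p = 0.0397, edgeR). Without the 3 week or the 2 month library the adjusted p was 0.162 and 0.119, and with a stricter gate 0.053. Reticular-like cells had 5835, 1422 and 175.8 Postn CPM, near the cells given no subtype by 2 months, and the Postn contrast was not called (adjusted p = 0.144). Thbs4 in reticular-like cells stood at 131, 593.9 and 33.1 CPM against 7.33, 74 and 3.26 CPM, higher in 3 of 3 libraries. Its log2 fold change was 3.35 with a standard error of 0.78 (adjusted p = 0.0094). Without the 3 week or the 2 month library the adjusted p was 0.0792 and 0.0774. At 2 months 1 reticular-like cell held 16 of their 36 Thbs4 UMIs. Tnc in interstitial progenitor-like cells had few counts in all libraries, with 6, 13 and 0 UMIs (2.5, 1.02 and 0 CPM), and was called lower (adjusted p = 0.0137). Without the neonatal or the 2 month library that adjusted p was 0.087 and 0.123. Their Spp1 call (adjusted p = 0.0461) rests on 0, 29 and 15 UMIs and was lost without the 3 week or the 2 month library (0.268 and 0.152).

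The Vwa1 and Apod gate, named for markers of cells around nerves, scored the mean of Vwa1, Apod, Sox9, Slc2a1 and Cldn1. A cell could thus pass it without a UMI of Vwa1 or Apod. Its 22, 72 and 125 cells were led by Cst6, Krt17 and Krt79, which are epithelial genes, and stay unnamed. In them Spp1 and Thbs4 were higher (5.42% of all genes) and Cyr61 lower (3.73%). Spp1 stood at 6.73, 153 and 875 CPM (log2 fold change 4.93, adjusted p = 0.000303, edgeR) and Thbs4 at 137.9, 191.7 and 168.4 CPM (3.3, adjusted p = 0.0169). Without the 3 week library both calls were lost (adjusted p = 0.0902 and 0.0773), and without the 2 month library the Thbs4 call was lost (0.314). Of these cells 21, 48 and 101 in the neonatal, 3 week and 2 month library had no UMI of Krt5, Krt14, Krt17 or Krt79. The 1, 11 and 8 cells with 10 or more such UMIs held 27, 2525 and 1215 of the 27, 2525 and 1220 Krt17 UMIs. The keratin lead of the pooled gate thus came from few cells. Of these, the 11 cells at 3 weeks held 3 Vwa1 and 14 Apod UMIs. The 21 neonatal cells without those keratin UMIs held 2 Vwa1 and 96 Apod UMIs. At 2 months the 101 cells held 481 of the 556 Spp1 UMIs, at 1281 Spp1 CPM, with 19253 Apod CPM. The 8 cells with 10 or more of these keratin UMIs had 33.9 Spp1 CPM and 0 Thbs4 UMIs.

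The age course of a member depended on the subtype. Named subtypes with 20 or more cells at both ages numbered 7 for neonatal to 3 weeks and 5 for 3 weeks to 2 months. Thbs4 was at least 2-fold lower at 2 months than at 3 weeks in 5 of 5 subtypes, with log2 ratios from -4.16 (reticular-like) to -1.37 (follicle-associated). Counting intervals of these subtype ratios are not given here. The unnamed cells of the Vwa1 and Apod gate are not among the 5, and their Thbs4 levels at these ages, given above, differed by less than 2-fold. Tnc was lower at 3 weeks than in the neonatal library in 7 of 7, at least 2-fold in 5. Its smallest difference was in reticular-like cells (54.7 and 44 CPM), where 1 cell held 68 of the 233 Tnc UMIs at 3 weeks. Sparc was higher at 3 weeks in 6 of 7 subtypes, by at least 2-fold in 4, with dermal papilla-like cells (-0.13) as the exception. Thbs1 in interstitial progenitor-like cells stood at 899.9, 264 and 10.3 CPM. In follicle-associated cells it had the opposite order, with 4.56, 44.4 and 109.5 CPM from 1, 110 and 251 UMIs. Postn was at least 2-fold lower at 2 months than in the neonatal library in 4 of 4 subtypes, with log2 ratios from -5.05 (reticular-like) to -2.09 (follicle-associated). Spp1 in cells given no subtype stood at 2.46 CPM in the neonatal library and 6.99 CPM at 2 months. Papillary-like cells had 3.11 and 2.28 Spp1 CPM, and interstitial progenitor-like and follicle-associated cells had 0 UMIs in the neonatal library and 15 and 5 at 2 months (1.17 and 2.18 CPM). Preadipocyte-like cells, the adipogenic state in this lineage, were 75 in the neonatal library and too few later to compare. There they had 2845 Postn, 930.1 Thbs1 and 2345 Cyr61 CPM, against 1116, 402.3 and 2166 CPM in cells given no subtype.

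Related genes were followed as lists in the fibroblast-like sums, by counts of genes at least 2-fold apart between ages. Over all 8776 genes 9.46% were higher and 10.3% lower at 3 weeks against neonatal. The shares were 2.97% and 4.44% at 2 months against 3 weeks, and 11.1% and 17.3% at 2 months against neonatal. No list was tested against these shares, and the receptor counts at 3 weeks lie near them. Among matrix partners and processing enzymes 6 of 11 measured genes were higher at 3 weeks than in the neonatal library, among them Col1a1 (12989 to 54013 CPM) and Dcn (3727 to 12557 CPM), and 1 was lower, Col12a1 (332.2 to 45.7 CPM). The median log2 ratio of that list was 1.06, beside -0.17 over all genes. From 3 weeks to 2 months 0 of its genes were higher and 4 lower (Col5a1, Col12a1, Col14a1 and Vcan), with a median of -0.5 beside -0.11. Of 17 measured receptors 2 were higher and 2 lower at 3 weeks, and at 2 months against neonatal 5 were higher (Itgb3, Itgb5, Sdc4, Lrp1 and Egfr) and 4 lower (Cd36, Cd44, Itga4 and Itga8). The thrombospondin receptor Cd36 went from 25.4 to 6.09 and 0.346 CPM and the osteopontin receptor Cd44 from 218.6 to 114.3 and 42.4 CPM. The endocytic thrombospondin receptor Lrp1 went from 219.3 to 407.8 and 606.5 CPM, and Egfr from 9.57 to 39 and 135.3 CPM. Tgfbi, the relative of Postn, had the opposite order, from 202.7 to 770.1 and 1199 CPM. Wisp2, a CCN relative of Cyr61, went from 3.34 to 88.3 and 44.9 CPM, and Nov, another, from 55.2 to 21.3 and 8.66 CPM. Of 7 measured YAP targets 0 were higher and 1 lower at 3 weeks (Ajuba), and none moved 2-fold from 3 weeks to 2 months. Of 13 immediate early and dissociation genes, which rise when tissue is digested, 2 were higher and 1 lower at 3 weeks, and 5 were higher and 0 lower at 2 months against neonatal. Cyr61 is itself such a gene, and the part of the digestion in its level was not tested. Of 10 TGF-beta ligands, receptors and latency proteins 4 were higher at 3 weeks (among them Tgfb2, Ltbp1 and Ltbp2) and 1 lower (Tgfb1). Among 4 fibulins Fbln7 alone was higher (1.42 to 11.6 CPM), and among SPARC relatives Spock2 was higher and Smoc1 lower.

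Over 59 summed profiles of classes, subtypes and libraries, the members resembled different genes. The profiles share cells between classes and their subtypes, so the correlations of log2 (CPM + 1) are descriptions. Sparc was most like Col1a2 (Pearson r = 0.938), Rarres2 (0.923) and Col1a1 (0.914). Tnxb was most like Cpz (0.879), Clec3b (0.871) and Ly6a (0.858). Postn was most like Fbn2 (0.86), Vcan (0.853) and Thbs3 (0.848). Thbs2 was most like Col3a1 (0.859), B830012L14Rik (0.855) and Col5a2 (0.838), and Cyr61 like Fkbp9 (0.848), Radil (0.835) and Pard3b (0.834). The other members had weaker neighbours. Thbs1 was most like Kcne4 (0.751), Adamts1 (0.705) and Plac9b (0.68), Thbs4 like Xpnpep2 (0.722), Pamr1 (0.716) and Mgp (0.712), which is a reticular marker of the gate. Tnc was most like Tead2 (0.761), Zfp30 (0.719) and Ptov1 (0.711), and Spp1 like Rtn1 (0.698) and Ncmap (0.672), of which Ncmap is a Schwann cell gene. Among the members themselves the closest pairs were Tnxb with Sparc (0.821), Thbs2 with Sparc (0.789) and Tnxb with Thbs2 (0.78).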

How the data were processed

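Single-cell RNA was measured in 3 dorsal skin libraries. The authors deposited UMI count matrices made with Cell Ranger 3.0.2 on the mm10 genome, per the submitters' processing notes, which also name Seurat 2.0. The values are whole counts with no normalization.

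Barcodes with at least 300 genes, 500 UMIs and at most 10% mitochondrial UMIs were kept. Doublets were called with Scrublet in scanpy 1.11.5, whose own threshold marked 0.0253% of neonatal barcodes (2.37% and 3.73% later), so the 6% with the highest scores were removed there. Cells were gated on marker scores (class minimum 0.25 with a margin of 0.1, subtype minimum 0.3 with a margin of 0.1). Counts were summed per class and library, for sums of 20 or more cells, and fitted with edgeR 4.0.16 (quasi-likelihood test, TMM, filterByExpr, library as a term, Benjamini-Hochberg threshold 0.05). Age ratios used CPM of these sums, with 95% Poisson, binomial (exact Clopper-Pearson) or conditional binomial intervals that cover counting error only. The fit was tested on simulated data for keratinocyte-like against fibroblast-like cells, with 200 of 11427 genes changed. It recovered 15.94% of changes of 1, 95.95% of 2 and 100% of 3 log2 units. The simulation otherwise gave every class the same mean and a fixed dispersion of 0.1, so these shares do not carry over to the members. In the real fit Thbs4 in Schwann-like cells had a log2 fold change of -2.38 with a standard error of 1.08. It was not called (adjusted p = 0.105, edgeR). An uncalled member is thus not shown to lack a difference of that size.

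All 9 members were named, with genes of related lists at least 2-fold apart and the 3 most similar genes per member. A few genes that this rule names are not reported here. Members, lists and gates were chosen with earlier results of these data known. Alternatives were DESeq2 1.42.0, no low-count filter, no library term, other scalings, stricter gates, Leiden clusters, doublets kept and leaving out each library. Sums limited to cells given no subtype, or without the Vwa1 and Apod gate, were chosen after seeing the data.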

Additional observations from a re-analysis of the deposited data

Results flagged for a closer look

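The age ratios of Thbs2 in keratinocyte-like cells had the opposite sign to those in fibroblast-like cells. The Thbs2 level in keratinocyte-like cells was 3.74 CPM in the neonatal library and 13.8 CPM at 3 weeks, a log2 ratio of 1.89 (95% counting interval 1.32 to 2.51), while the ratio in fibroblast-like cells was -1.12. At 2 months the level was 20.7 CPM, a log2 ratio to neonatal of 2.47 (1.91 to 3.08), against -1.55 in fibroblast-like cells. The neonatal value (27 UMIs) was 0.895 times the 4.17 CPM that the collagen counts of these cells would carry if all came from fibroblast RNA, so it is not above that background and both ratios start from it. The later values were 8.78 and 32.9 times that level. Basal cells made up 23.5%, 58.9% and 48.2% of keratinocyte-like cells in the neonatal, 3 week and 2 month library. Suprabasal cells made up 46.6%, 22.7% and 20.8%. Thbs2 is not given here by subclass, and the part of this shift in its ratios was not tested. Spp1 in macrophage-like cells was 36.6 CPM in the neonatal library and 9.01 CPM at 2 months, a log2 ratio of -2.02 (-3.73 to -0.67), against 2.77 in fibroblast-like cells. These Spp1 values rest on 36 and 5 UMIs, and the fibroblast-like ratio was 1.49 without the cells of the Vwa1 and Apod gate. With 1 library per age none of these differences between classes was tested.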

How the results depend on the processing

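Of 69 calls among 153 member contrasts, all 69 kept their direction wherever they were fitted. DESeq2 kept 65, the fit without a low-count filter 69, the fit with doublets kept 66, the fit with no library term 52, Leiden classes 43 of 50 and the stricter subtype gate 15 of 19. Without the neonatal, 3 week and 2 month library 64, 35 and 52 were kept. The share of all genes called was not counted in these other fits, so the counts of members below cannot be set beside it. Leaving out 1 library gave ranges of lower members of 0 to 4 (erythroid-like), 3 to 7 (mural-like), 2 to 5 (Schwann-like), 1 to 7 (dermal papilla-like), 0 to 4 (dermal sheath-like), 1 to 5 (follicle-associated), 0 to 1 (interstitial progenitor-like), 0 to 4 (Vwa1 and Apod gate) and 0 to 3 (reticular-like). The ranges of higher members were 0 to 1 in mural-like, Schwann-like, interstitial progenitor-like and reticular-like cells and 0 to 2 in the Vwa1 and Apod gate. With no library term, lower members numbered 1 (erythroid-like), 4 (dermal papilla-like) and 0 (dermal sheath-like, interstitial progenitor-like and reticular-like), and higher members 0 (interstitial progenitor-like and reticular-like) and 1 (Vwa1 and Apod gate). Leiden classes gave 0 lower in erythroid-like and 3 in Schwann-like cells. DESeq2 gave 1 lower in cycling, 2 in dermal sheath-like and 1 in interstitial progenitor-like cells. No low-count filter gave 2 lower in dermal sheath-like cells and 2 in the Vwa1 and Apod gate. Doublets kept gave 1 lower in interstitial progenitor-like cells. The stricter gate gave 4 lower in dermal papilla-like, 5 in follicle-associated and 2 in reticular-like cells and 0 higher in interstitial progenitor-like cells. As a mean of CPM per cell, 1 member, Spp1, was at least 2-fold higher at 2 months than at 3 weeks (log2 ratio 1.775). In that setting Thbs1 at 3 weeks against neonatal (-0.98) and Thbs4 at 2 months against neonatal (-0.05) were no longer 2-fold lower. Under TMM scaling Thbs2 at 3 weeks against neonatal was no longer 2-fold lower (-0.93). The cause of these changes was not tested, and the fits that leave out a library also hold fewer samples. None of the 18 age ratios of 2-fold or more changed sign over 10 other settings, and 5 of the 9 smaller ones did. TMM scaling shifted all log2 ratios by 0.18, 0.11 and 0.29 for 3 weeks against neonatal, 2 months against 3 weeks and 2 months against neonatal. No paired analysis was possible between ages because each age has 1 library, while class and subtype contrasts had library as a term.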
